A study of Mus musculus with 12 samples.

Results

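The neutrophil granule genes described here code for proteins that neutrophils store in their granules or carry in bulk in their cytosol, and for a membrane protein of their progenitors. They are S100a8, S100a9, Ngp, Camp, Ltf, Retnlg, Lcn2 and Ms4a3, 8 of the 22609 gene symbols counted in 12 RNA-seq libraries, and were taken by symbol. Lingual sensory neurons were labelled by injecting the fluorescent tracer WGA-488 in the tongue of athymic nude Balb/c mice, a strain without a thymus that lacks mature T cells, and WGA-bright cells were flow sorted from dissociated trigeminal ganglia (TG). The groups, with 3 libraries each, were normal males (MN), normal females (FN) and, with a tongue tumor, males (MT) and females (FT). Tumor mice received 350000 HSC3 cells, a line from a human squamous cell carcinoma of the mouth, in the tongue 15 days before harvest. The sample labels say that normal mice received no cells, whereas the study's methods describe an injection of a human normal keratinocyte line, so the tumor comparisons may be against injected or uninjected tongues. All mice, normal ones included, received the tracer on day 13. A normal library pooled 4 TGs of 2 mice and a tumor library 4 ipsilateral TGs of 4 mice, so p-values rest on the spread between pools. The number of mice per pool and the side of the TGs differed together with the tumor. In MT versus MN and FT versus FN they cannot be told apart from it.

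Neutrophils make their granules in waves while they mature in bone marrow. Azurophil granules with Mpo and the serine proteases come in the promyelocyte, specific granules with Ltf, Camp, Ngp and Lcn2 follow in the myelocyte, and gelatinase granules come last. S100a8 and S100a9 proteins pair to form calprotectin, which makes up much of the cytosolic protein of a neutrophil and binds zinc, manganese and calcium. A sensory ganglion holds neurons, satellite glia, Schwann cells, endothelium and resident macrophages, and few neutrophils in the uninjured state. In bulk RNA of sorted cells, fewer cells of a type and less RNA per cell cannot be told apart.

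The libraries held 4592891 to 8922011 reads on genes, and a count of 3 reads, taken as the detection floor, corresponded to 0.336 to 0.653 CPM (counts scaled to a library of 1000000 reads on genes). In FN replicate 2 (FN2), FT2 and FT3, 52.6% to 68.4% of all reads mapped to several places, against 43.0% to 45.5% in the other 9 libraries. Values are therefore also given for the 10 libraries without FN2 and FT2 and the 9 without FT3 as well. Among these 9, FT1 was the only FT library. The 8 sensory neuron markers summed to 8794 CPM in FT2 and 12770 to 17300 CPM in the other libraries. Avil and Pirt were lowest in FN2, FT2 and FT3, at 242 to 663 and 485 to 968 CPM. Elsewhere they had 1148 to 1526 and 1667 to 2070 CPM. Tubb3, Isl1, Pou4f1 and Prph were instead highest in FN2 and FT3. The highest Spearman correlation of log2 CPM with the other 9 libraries was 0.850 in FN2, 0.811 in FT2 and 0.908 in FT3. Among those 9 libraries it was 0.987 to 0.989. Of 3 T cell markers, Cd3e and Cd3g were at 0 in every library and Cd3d had at most 2 reads. The 4 hemoglobin genes were listed at 0 in every library, so they give no check for blood, and Alas2, the highest of the other red blood cell markers, had at most 24 reads. SMART-seq2 reads carry no molecular identifiers, so exact Poisson intervals and floors given here cover counting error only.

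The promoters of 4 members are shown because their levels across the libraries took different courses. S100a8 and S100a9 varied together, Ngp varied with them in most libraries and Ms4a3 varied the opposite way. The sequences are the 250 bases before the transcription start in RefSeq (build GRCm38.p6), 5′ to 3′ on the strand of the gene. Capitals mark matches on either strand to TTGCNNAA, the letters of a C/EBP site, to GAGGAA, the core of a PU.1 site, and to TATAAA, the TATA box. C/EBP factors and PU.1 are transcription factors of the myeloid lineage. No matches overlapped in these members.
S100a8, chr3:90668821-90669070, plus strand: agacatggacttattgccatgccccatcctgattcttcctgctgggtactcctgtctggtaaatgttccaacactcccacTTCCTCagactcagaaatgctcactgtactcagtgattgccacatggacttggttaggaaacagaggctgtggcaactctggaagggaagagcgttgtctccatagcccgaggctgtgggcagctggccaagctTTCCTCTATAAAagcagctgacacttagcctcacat
S100a9, chr3:90695722-90695971, minus strand: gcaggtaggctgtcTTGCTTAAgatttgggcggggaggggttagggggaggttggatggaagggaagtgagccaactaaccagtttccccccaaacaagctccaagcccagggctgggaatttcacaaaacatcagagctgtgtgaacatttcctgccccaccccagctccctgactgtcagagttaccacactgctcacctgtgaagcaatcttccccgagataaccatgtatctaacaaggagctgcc
Ngp, chr9:110419558-110419807, plus strand: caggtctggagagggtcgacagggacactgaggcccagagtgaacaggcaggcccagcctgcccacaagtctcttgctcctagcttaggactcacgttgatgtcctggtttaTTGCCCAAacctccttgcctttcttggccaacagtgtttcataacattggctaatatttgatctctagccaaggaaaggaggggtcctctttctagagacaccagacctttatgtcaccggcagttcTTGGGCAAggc
Ms4a3, chr19:11640852-11641101, minus strand: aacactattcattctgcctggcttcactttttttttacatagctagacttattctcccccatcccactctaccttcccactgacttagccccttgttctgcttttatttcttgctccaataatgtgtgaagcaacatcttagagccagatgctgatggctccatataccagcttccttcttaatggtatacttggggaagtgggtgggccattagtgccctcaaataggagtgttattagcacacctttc

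S100a8 held 2 matches to the PU.1 letters, 1 of them ending 31 bases before the start, and a TATA box at 30 to 25 bases before it. S100a9 held 1 C/EBP match at 236 to 229 bases before the start. Ngp held 2, at 138 to 131 and at 11 to 4 bases before the start. Ms4a3 held no match to any of the 3 motifs in this window. All 8 members had a promoter in the table. Among them 5 held the C/EBP letters (S100a9, Ngp, Ltf, Retnlg and Lcn2), 3 the PU.1 letters (S100a8, Ltf and Lcn2) and 1 the TATA box, and Camp, like Ms4a3, held none. Of all 32851 promoters of this length in the table, 9.56% held the C/EBP letters, 23.3% the PU.1 letters and 12.4% the TATA box. A match is a string of letters and was not tested as a binding site.

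Per length of exon, S100a8 was the highest of the 8 genes, with a mean of 73.8 RPKM (CPM per kilobase of exon) over the 12 libraries. Lcn2 followed with 24.9 RPKM and S100a9 with 21.0 RPKM. Retnlg (6.40 RPKM), Ngp (4.84), Camp (3.06), Ms4a3 (2.73) and Ltf (0.680) were lower. All 8 genes passed the filter on low counts. The order differed between groups. In MN it ran from S100a8 (13.2 ± 10.5 RPKM, SD, n = 3) through Lcn2 (10.5 ± 6.78) and Ms4a3 (5.70 ± 1.88) to S100a9 (5.14 ± 4.48), and in FT from S100a8 (185 ± 143 RPKM) through S100a9 (49.4 ± 26.6) and Lcn2 (12.2 ± 8.28) to Ngp (10.9 ± 9.29). In MN the values of neighbours in this order overlapped. In FT every value of S100a8 was above every value of S100a9, and every value of S100a9 above every value of Lcn2, whereas Lcn2 and Ngp overlapped.

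**Figure D1:**
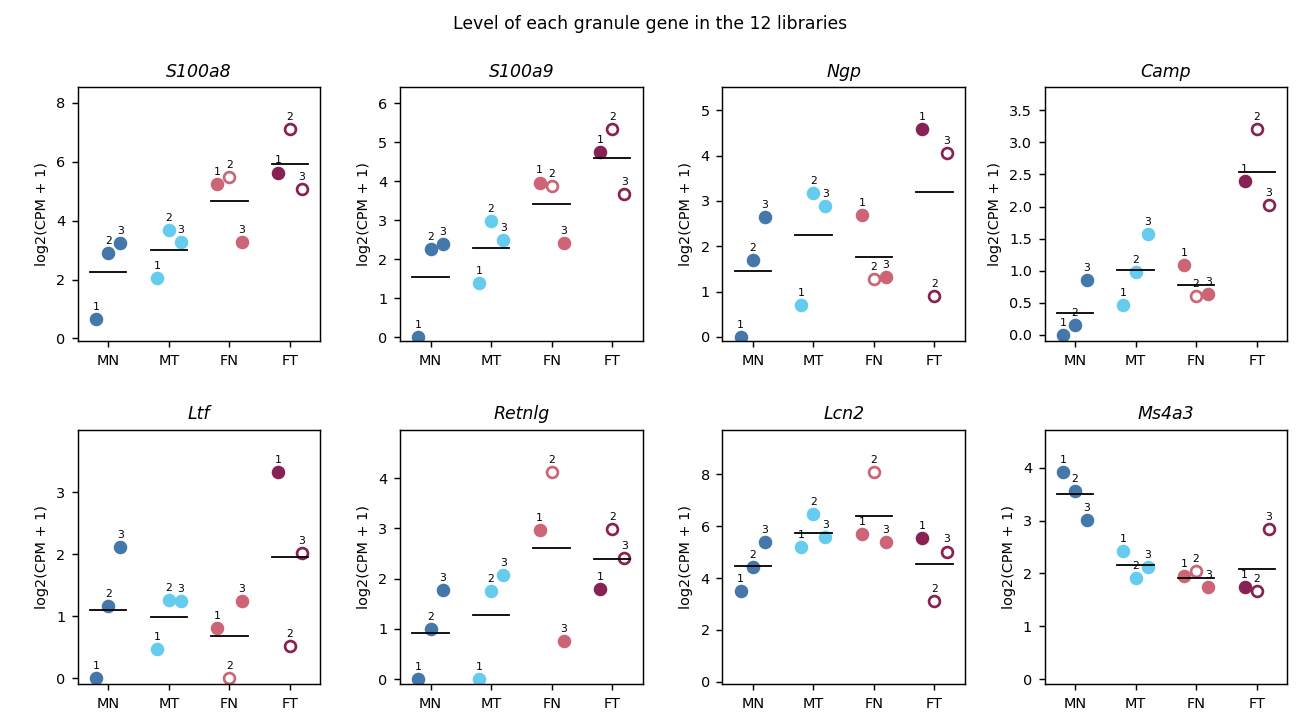
Level of the 8 genes by group, as log2(CPM + 1) on the vertical axis, with 1 point per library numbered by replicate. Open points are FN2, FT2 and FT3, and lines are the means of the 3 log values. MN1 is at or near 0 for S100a8, S100a9, Ngp, Camp, Ltf and Retnlg and is the highest library for Ms4a3.

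S100a8 and S100a9 lie near each other on chromosome 3 (mm9, chr3:90472993-90473956 and chr3:90496554-90499643) and code for the 2 chains of calprotectin. S100a8 stood at 0.562, 6.50 and 8.49 CPM in MN1, MN2 and MN3, and at 3.14, 11.8 and 8.64 CPM in MT1, MT2 and MT3. In females it stood at 37.3, 44.1 and 8.63 CPM in FN1, FN2 and FN3, and at 48.7, 137 and 32.5 CPM in FT1, FT2 and FT3. All FN libraries were above all MN libraries, FN3 by a narrow margin, and each FT library was above each MT library. The group means were 5.19 ± 4.13 CPM in MN, 7.87 ± 4.38 in MT, 30.0 ± 18.8 in FN and 72.6 ± 56.1 in FT (SD, n = 3). MN overlapped MT, MT overlapped FN, and FN overlapped FT, so no neighbours in this order were apart.

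S100a9 had 0, 3.81 and 4.25 CPM in MN1 to MN3 and 1.64, 6.95 and 4.69 CPM in MT1 to MT3. It had 14.7, 13.7 and 4.38 CPM in FN1 to FN3 and 25.9, 39.6 and 11.9 CPM in FT1 to FT3. Its order of groups was that of S100a8, from 2.69 ± 2.34 CPM in MN and 4.42 ± 2.67 in MT to 10.9 ± 5.69 in FN and 25.8 ± 13.9 in FT (SD, n = 3). S100a8 had 1.70 to 3.45 reads for each read of S100a9 in the 11 libraries with reads of S100a9, or 2.26 to 4.59 times its RPKM. The ratio of reads was lowest in MT2 and highest in FT2 and FN2 (3.22). MN1 had 4 reads of S100a8 and none of S100a9, for which the exact 95% Poisson interval reached up to 0.519 CPM. Across libraries, log2 CPM of the 2 genes had a Pearson r of 0.989 over the 9 libraries and 0.981 over all 12. This r describes these libraries, which share groups and preparation.

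Ngp, neutrophilic granule protein (mm9, chr9:110322254-110325514), Camp, the precursor of the antimicrobial peptide CRAMP (chr9:109749889-109751970), and Ltf, the iron-binding lactoferrin (chr9:110921796-110945270), are cargo of specific granules. Ngp had 0, 2.24 and 5.28 CPM in MN1 to MN3 and 0.629, 8.06 and 6.42 CPM in MT1 to MT3. It had 5.41, 1.44 and 1.51 CPM in FN1 to FN3 and 23.0, 0.871 and 15.8 CPM in FT1 to FT3. FT1 and FT3 were above the other 10 libraries, whereas FT2 had 4 reads, against 0 in MN1 and 5 in MT1. Group means were 2.51 ± 2.65 CPM in MN, 5.04 ± 3.90 in MT, 2.78 ± 2.27 in FN and 13.2 ± 11.3 in FT (SD, n = 3), and all 4 groups overlapped.

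Camp was close to the floor in MN, with 0, 1 and 7 reads, and had 3, 7 and 16 reads in MT1 to MT3, 9, 4 and 4 in FN1 to FN3 and 31, 38 and 22 in FT1 to FT3. In CPM the FT libraries stood at 4.25, 8.27 and 3.07, above all 9 others, of which MT3 was the highest at 1.98 CPM. Camp was the only member for which the 3 FT libraries were apart from all others in CPM. The share of all genes apart in this way was not counted. Its group means were 0.305 ± 0.435 CPM in MN, 1.11 ± 0.808 in MT, 0.734 ± 0.345 in FN and 5.20 ± 2.73 in FT (SD, n = 3), and MN, MT and FN overlapped one another. Ltf had 0, 11 and 29 reads in MN1 to MN3, 3, 10 and 11 in MT1 to MT3, 6, 0 and 10 in FN1 to FN3 and 66, 2 and 22 in FT1 to FT3. FT1 was the highest library for Ltf, at 9.05 CPM, and FT2 had less Ltf than FT1 and FT3. Means of Ltf were 1.52 ± 1.68 CPM in MN, 1.04 ± 0.575 in MT, 0.708 ± 0.686 in FN and 4.19 ± 4.42 in FT (SD, n = 3), with all groups overlapping.

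Retnlg, a secreted resistin-like protein of mature neutrophils (mm9, chr16:48872721-48874611), had 0, 1.01 and 2.41 CPM in MN1 to MN3 and 0, 2.36 and 3.21 CPM in MT1 to MT3. It had 6.79, 16.4 and 0.685 CPM in FN1 to FN3 and 2.47, 6.97 and 4.32 CPM in FT1 to FT3. FN2 was the highest library and FN3 was below 7 of the others outside its group, so FN spanned nearly the whole range of the gene. Group means were 1.14 ± 1.21 CPM in MN, 1.86 ± 1.66 in MT, 7.97 ± 7.94 in FN and 4.59 ± 2.26 in FT (SD, n = 3). FT overlapped MT, with 2.47 CPM in FT1 against 3.21 CPM in MT3.

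Lcn2, a lipocalin that binds bacterial siderophores (mm9, chr2:32240153-32243317), is a specific granule protein that epithelia and glia also make in inflammation. It had 10.4, 20.7 and 41.1 CPM in MN1 to MN3 and 35.2, 88.5 and 46.8 CPM in MT1 to MT3. It had 51.2, 270.1 and 40.5 CPM in FN1 to FN3 and 45.3, 7.62 and 31.5 CPM in FT1 to FT3. Lcn2 was highest in FN2, with 2070 reads, and lowest in FT2, with 35 reads, the library in which S100a8, S100a9 and Camp were highest. Outside FN2 and FT2 it ranged from 10.4 to 88.5 CPM. Group means were 24.1 ± 15.6 CPM in MN, 56.8 ± 28.0 in MT, 121 ± 129.6 in FN and 28.1 ± 19.0 in FT (SD, n = 3), and FN fell to a mean of 45.9 CPM without FN2.

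Ms4a3, a membrane protein of granulocyte and monocyte progenitors (mm9, chr19:11703987-11715341), went the other way. It had 14.2, 10.9 and 7.11 CPM in MN1 to MN3, from 101, 97 and 62 reads. It had 4.40, 2.78 and 3.33 CPM in MT1 to MT3, 2.89, 3.13 and 2.33 CPM in FN1 to FN3, and 2.33, 2.18 and 6.14 CPM in FT1 to FT3. Each MN library was above each of the 9 others, of which FT3 came closest. The share of all genes with MN apart in this way was not counted. MN1, with the most Ms4a3, was also the lowest library for 6 of the other members, tied at 0 with FN2 for Ltf and with MT1 for Retnlg. Group means were 10.7 ± 3.55 CPM in MN, 3.50 ± 0.825 in MT, 2.78 ± 0.412 in FN and 3.55 ± 2.24 in FT (SD, n = 3), and MT, FN and FT overlapped. In the annotation of mm9 (GENCODE M1) none of the 8 members overlapped another gene on either strand.

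The make-up of the reads of the 8 genes differed between libraries. Ms4a3 gave 56.4% of them in MN1, 23.4% in MN2 and 9.78% in MN3, and 9.62% or less in the other 9. Lcn2 gave 61.2% to 76.9% in MT and 28.1%, 3.76% and 29.1% in FT1, FT2 and FT3. S100a8 gave 67.5% in FT2, and 30.2% and 30.0% in FT1 and FT3. Ngp, Camp and Ltf together had 0.195 to 1.13 reads for each read of S100a8 in the 9 libraries other than MN1, FN2 and FT2. That ratio was 0.0444 in FN2 and 0.0701 in FT2, and MN1 had none of the 3 genes. FN2 and FT2 thus held much S100a8 with few reads of Ngp and Ltf, while Lcn2 was at its highest in FN2 and Camp in FT2.

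**Figure D2:**
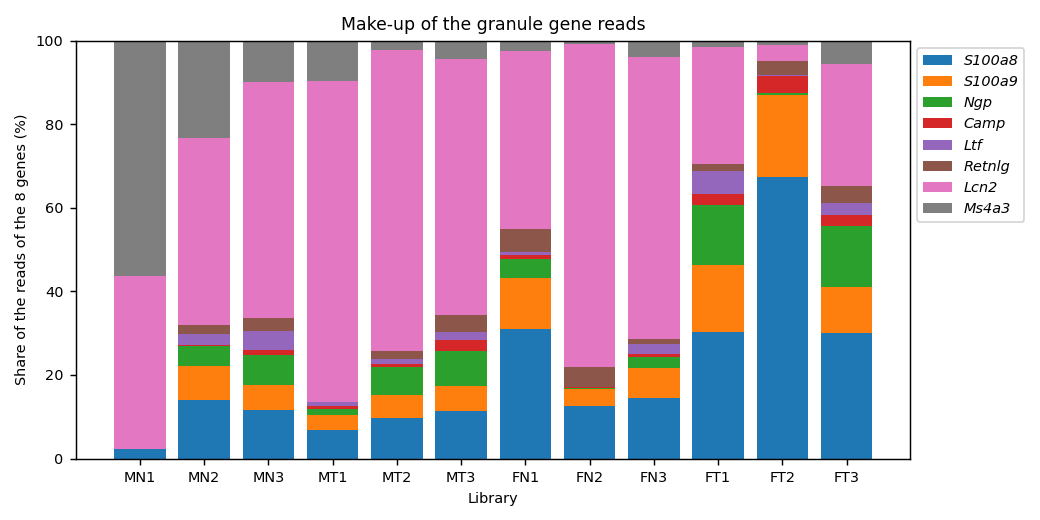
Share of each gene, in percent, in the summed reads of the 8 genes, 1 bar per library. Ms4a3 takes 56.4% of the bar of MN1, Lcn2 61.2% to 76.9% of the MT bars and S100a8 67.5% of the bar of FT2.

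Over the 9 libraries other than FN2, FT2 and FT3, S100a8, S100a9, Ngp, Camp, Ltf, Retnlg and Lcn2 had positive r with one another, from 0.554 (Ltf with Lcn2) to 0.989. Ms4a3 had negative r with each of them, from -0.502 with Ltf to -0.839 with Lcn2. Over all 12 libraries r of S100a8 was 0.504 with Ngp, 0.281 with Ltf and 0.207 with Lcn2, against 0.905, 0.775 and 0.732 over the 9. These r are descriptions over few libraries in which group, MN1 and depth are shared.

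The genes outside the 8 members most like each of them over the 9 libraries, among those with a mean of at least 1 CPM, are given with r over 9 and then 12 libraries. Pola1 (0.975 and 0.745), 1700094D03Rik (0.972 and 0.416) and Cotl1 (0.957 and 0.869) were most like S100a8, all with a lower r than S100a9 had. 1700094D03Rik (0.973 and 0.547), Accs (0.967 and -0.123) and Pola1 (0.965 and 0.744) were most like S100a9. For Ngp they were Accs (0.967 and 0.602), Prune (0.954 and 0.0733) and Rnf20 (0.953 and -0.108). These names repeat between members that varied together. For Camp they were Mical1 (0.942 and -0.195), Rnf20 (0.937 and 0.498) and Bzw2 (0.936 and 0.404), and for Ltf Tnfrsf22 (0.933 and 0.495), Chd2 (0.926 and 0.0955) and 2410016O06Rik (0.918 and 0.738). Aagab (0.967 and -0.575), Utp23 (0.949 and 0.909) and Cpsf4 (0.927 and 0.925) were most like Retnlg. Rin1 (0.950 and 0.128), Pyroxd2 (0.948 and 0.390) and Noxo1 (0.930 and 0.536) were most like Lcn2, and Slc30a6 (0.965 and 0.695), Psmd5 (0.954 and 0.478) and Prkcq (0.949 and 0.351) most like Ms4a3. These genes were chosen on the 9 libraries, and r over 12 was lower for each of them.

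The first comparison asked how normal females differed from normal males. In FN versus MN, S100a8, S100a9, Retnlg and Lcn2 were higher and Ms4a3 was lower at an unadjusted p under 0.05, and no member passed adjustment over all genes. In edgeR's quasi-likelihood test 0 of 13360 genes had an adjusted p under 0.05 (0%), 696 (5.21%) were higher and 48 (0.359%) lower at an unadjusted p under 0.05. DESeq2 called 20 genes and limma-voom with quality weights 800. The log2 fold change of S100a8 was 2.69 (SE 0.89, edgeR unadjusted p = 0.0088, adjusted p = 0.809) and that of S100a9 2.14 (SE 0.90, unadjusted p = 0.0316). That of Retnlg was 3.01 (SE 1.24, edgeR unadjusted p = 0.0291) and that of Lcn2 2.60 (SE 0.81, unadjusted p = 0.00626). Ms4a3 had a log2 fold change of -1.82 (SE 0.50, edgeR unadjusted p = 0.00278, adjusted p = 0.809).

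Camp (1.26, SE 0.97), Ngp (0.19, SE 1.11) and Ltf (-1.09, SE 1.16) had an unadjusted p over 0.05 in FN versus MN, on the log2 scale. Camp stood at 3.32 (SE 1.25, edgeR unadjusted p = 0.0195, adjusted p = 0.936) without MN3, which held 7 of the 8 reads of Camp in MN. The libraries of FN and MN did not overlap for 2 members that were higher, S100a8 and S100a9, and for 1 that was lower, Ms4a3. Among all genes tested 9.66% were higher and 10.2% lower in this sense. For S100a8 and S100a9, FN3 was above MN3 by a narrow margin (8.63 against 8.49 and 4.38 against 4.25 CPM). Leaving out MN1 gave S100a9 a log2 fold change of 1.57 (SE 0.76, edgeR unadjusted p = 0.0571). Retnlg then had 2.45 (SE 1.30, edgeR unadjusted p = 0.0811), and S100a8, Lcn2 and Ms4a3 kept an unadjusted p under 0.05. Without FN2 the log2 fold change was 0.90 for Lcn2, 1.64 for Retnlg and 2.10 for S100a8. Of the members, 2 then had an edgeR unadjusted p under 0.05. Over the 10 libraries without FN2 and FT2, S100a8 and Ms4a3 were under this threshold. There S100a9 (edgeR unadjusted p = 0.0619), Lcn2 (0.0928) and Retnlg (0.187) were over it. Over the 9 libraries Ms4a3 passed adjustment (log2 fold change -2.08, edgeR adjusted p = 0.0434), and limma-voom gave an adjusted p of 0.0035 for Ms4a3 and of 0.0456 for S100a8. With only FN and MN fitted and MN1 left out, S100a8 had a log2 fold change of 2.19 (SE 0.81) and Ms4a3 of -1.57 (SE 0.46).

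In tumor against normal males Ms4a3 was the member with an unadjusted p under 0.05, and it was lower. In MT versus MN the log2 fold change of Ms4a3 was -1.59 (SE 0.50, edgeR unadjusted p = 0.00643, adjusted p = 1), and each MT library was below each MN library. Of all genes, 7.32% were lower in all MT libraries and 5.8% higher, the latter with 0 members. In edgeR 0 of 13835 genes passed adjustment (0%), and 48 (0.347%) were higher and 11 (0.0795%) lower at an unadjusted p under 0.05, with Ms4a3 among the latter. DESeq2 called 2 genes and limma-voom 47. Limma-voom gave an adjusted p of 0.0166 for Ms4a3 and of 0.0471 for Lcn2.

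Lcn2 had a log2 fold change of 1.26 (SE 0.78) in MT versus MN, and 1.24 (SE 0.41, edgeR adjusted p = 0.515) over the 9 libraries. Those of Camp (1.77, SE 0.94), Ngp (0.99, SE 1.10), S100a9 (0.70, SE 0.89), Retnlg (0.67, SE 1.24), S100a8 (0.60, SE 0.86) and Ltf (-0.55, SE 1.12) had an unadjusted p over 0.05. Without MN3 that of Camp was 3.83 (SE 1.23, edgeR unadjusted p = 0.00778, adjusted p = 1). Without MN1 the log2 fold change of S100a8 was 0.08 and that of S100a9 0.14, so the small differences of calprotectin genes between male groups rested on that library.

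In tumor against normal females, Camp and Ltf were higher and Lcn2 was lower at an unadjusted p under 0.05, and no member passed adjustment. In FT versus FN the log2 fold change of Camp was 2.95 (SE 0.86, edgeR unadjusted p = 0.00393, adjusted p = 0.994), that of Ltf 2.59 (SE 1.15, unadjusted p = 0.0409) and that of Lcn2 -2.29 (SE 0.80, unadjusted p = 0.0126). Ngp (2.25, SE 1.11), S100a8 (1.40, SE 0.84), S100a9 (1.33, SE 0.85), Ms4a3 (0.40, SE 0.51) and Retnlg (-0.81, SE 1.14) had an unadjusted p over 0.05. In edgeR 0 of 13835 genes passed adjustment (0%), as in DESeq2 and limma-voom, and 439 (3.17%) were higher and 89 (0.643%) lower at an unadjusted p under 0.05.

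Camp was the member whose FT libraries were all above the FN libraries, which 1.22% of all genes were, while 1.26% were all below with no member. Over the 10 libraries without FN2 and FT2, Ngp, Camp and Ltf were higher in both FT libraries than in both FN libraries, as were 16.5% of all genes in this split of 2 against 2, with log2 fold changes of 2.56 (SE 1.05), 2.18 (SE 0.86) and 2.57 (SE 1.01). Lcn2 then had a log2 fold change of -0.17 (SE 0.52). That of Lcn2 was -0.59 without FN2 alone and -1.89 without FT2 alone, so the difference of Lcn2 between female groups rested mainly on FN2. Without FT2 alone the log2 fold change of S100a8 was 0.29, and that of Ltf was 1.52 without FT1.

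In tumor females against tumor males the calprotectin genes and Camp were higher, before adjustment. In FT versus MT the log2 fold change was 3.49 for S100a8 (SE 0.91, edgeR unadjusted p = 0.00176, adjusted p = 0.321), 2.77 for S100a9 (SE 0.90, unadjusted p = 0.00822) and 2.44 for Camp (SE 0.83, unadjusted p = 0.0103). These 3 genes were higher in each FT library than in each MT library, as were 8.03% of all genes, and no member was lower in each, as were 9.61%. In edgeR 0 of 13360 genes passed adjustment (0%), 1331 (9.96%) were higher and 279 (2.09%) lower at an unadjusted p under 0.05. DESeq2 called 245 genes, among them S100a8 (adjusted p = 0.00355) and S100a9 (adjusted p = 0.0406), and limma-voom called 0. Without FT1 edgeR called 755 genes, among them S100a8 (adjusted p = 0.0411).

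Ltf (2.05, SE 1.11), Retnlg (1.53, SE 1.20), Ngp (1.45, SE 1.07), Lcn2 (-0.95, SE 0.78) and Ms4a3 (0.16, SE 0.50) had an unadjusted p over 0.05 in FT versus MT, on the log2 scale. Over the 10 libraries S100a8 stood at 2.39 (SE 0.74) and S100a9 at 2.10 (SE 0.80). Over them Ngp and Ltf were also higher in each FT library than in each MT library, as were 16.9% of all genes. FT versus MT shares its FT libraries with FT versus FN and its MT libraries with MT versus MN.

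**Figure D3:**
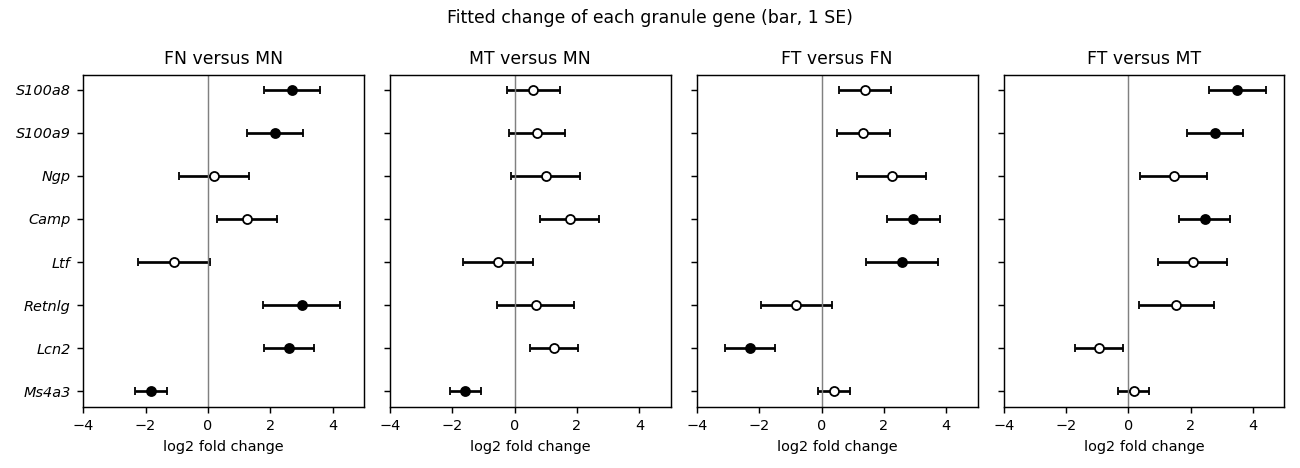
Fitted log2 fold change of the 8 genes (horizontal axis) in each of 4 comparisons, from edgeR on 12 libraries. Bars are 1 SE, and filled points have an unadjusted p under 0.05. S100a8 and S100a9 are above 0 in all 4 panels, and Ms4a3 is at -1.82 and -1.59 in the panels against MN.

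The effect of the tumor was then compared between the sexes. The log2 fold change in FT versus FN minus that in MT versus MN was -3.55 for Lcn2 (SE 1.12, edgeR unadjusted p = 0.00658) and 1.98 for Ms4a3 (SE 0.71, unadjusted p = 0.0142), each with an adjusted p of 1. In edgeR 0 of 13835 genes passed adjustment (0%), as in DESeq2 and limma-voom, and 137 (0.99%) were higher and 66 (0.477%) lower at an unadjusted p under 0.05. Lcn2 was -1.42 (SE 0.68) over the 10 libraries, and Ms4a3 1.43 over the 9, where FT1 was the only FT library. The other 6 members, Ltf (3.14, SE 1.60), Retnlg (-1.47, SE 1.68), Ngp (1.25, SE 1.54), Camp (1.18, SE 1.34), S100a8 (0.80, SE 1.19) and S100a9 (0.63, SE 1.23), had an unadjusted p over 0.05.

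Other genes of neutrophils were mostly near the floor. Of the 4 azurophil granule enzymes none passed the filter on low counts. Prtn3 (proteinase 3) averaged 0.873 CPM and Mpo (myeloperoxidase) 0.324 CPM. Elane, neutrophil elastase, had reads in FT1 and FT2 and none in the other 10 libraries, and Ctsg, cathepsin G, had 4 reads in FT1 and none elsewhere. In MN1, with the most Ms4a3, Mpo stood at 0.984 CPM, and Elane and Ctsg were at 0. Mpo was highest in FT1, at 1.37 CPM from 10 reads, where Ms4a3 had 2.33 CPM. It stood at 0.112 CPM in MN2, the library next to MN1 in Ms4a3. Of 10 surface receptors, Ly6g was not analysed here, and 3 of the 9 others were tested. Csf3r, the G-CSF receptor, had at most 18 reads and Cxcr2, a chemokine receptor, at most 6. Both were highest in FN1, and both were at 0 in MN1, MT1 and MT2. Clec4e (2.01 CPM on average) and Clec4d (1.15 CPM), C-type lectins that macrophages also carry, were the highest of the list.

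None of the 7 stefins, cytosolic protease inhibitors, passed the filter. BC100530 averaged 0.357 CPM, Gm5483 0.293, Stfa2 0.193 and Stfa2l1 0.169. These 4 had at most 14 reads, and each had its most reads in FN1. Other specific granule and secreted proteins were led by Lyz2, lysozyme, at 8.34 to 11.7 CPM in MN, MT1 and MT2 and 48.3 to 208 CPM in MT3 and all female libraries. Of the macrophage markers, C1qa, C1qb, C1qc, Cd68 and Tyrobp split the libraries likewise, and Csf1r, Cx3cr1, Aif1, Mrc1 and Emr1 did not. The source of the Lyz2 reads was not tested. Pglyrp1, a peptidoglycan binding protein, averaged 12.7 CPM, Cybb, the oxidase subunit on X, 3.21 and Chi3l3 2.32. Of this list 5 genes were tested in FN versus MN, and 4 were higher at an unadjusted p under 0.05 and none lower, with a median log2 fold change of 1.55 against 0.07 over all genes. In MT versus MN 2 of 6 were higher, in FT versus FN 0 of 6 and in FT versus MT 1 of 5. None passed adjustment.

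Among gelatinase granule proteins Mmp25 averaged 32.2 CPM and Adam8 22.9 CPM, and both were at their lowest in FN2 and FT2. Itgam (1.57 CPM) and Mmp9 (1.19 CPM), the gelatinase itself, were low. Of 4 tested genes, Adam8 was lower in FT versus MT at an unadjusted p under 0.05, and no other difference of the list reached it. Of 5 transcription factors of granulopoiesis, Gfi1 was listed at 0 throughout and Cebpe, which drives specific granule genes, had 1 read in MT2 and none elsewhere. Cebpd averaged 85.2 CPM, Cebpa 2.17 and Sfpi1, which codes for PU.1, 1.42. Cebpd and Sfpi1 were higher in FN versus MN, and Cebpa and Sfpi1 in FT versus MT, at an unadjusted p under 0.05 and no adjusted one. Cebpd, like Lcn2 and Retnlg, was highest in FN2, at 244 CPM.

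Of receptors for the granule proteins, Slc22a17, a receptor for lipocalin 2, averaged 147 CPM, Lrp1, which binds lactoferrin, 28.4 and Tlr4, which binds calprotectin, 12.9. Lrp2 averaged 1.58 CPM. None of the 4 tested receptors had an unadjusted p under 0.05 in any comparison. Among neutrophil-attracting chemokines Cxcl1 averaged 11.7 CPM, Cxcl2 7.72 and Csf3, the growth factor G-CSF, 1.34. Cxcl2 was highest in FT2, at 37.7 CPM, as S100a8 was. The 2 other tested genes of the list had an unadjusted p over 0.05 in all comparisons but Csf3 in FN versus MN, where it was lower. The log2 fold change of Cxcl2 was 1.91 (SE 0.81) in FN versus MN, 2.19 (SE 0.77) in FT versus FN and 2.96 (SE 0.79, edgeR adjusted p = 0.321) in FT versus MT.

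**Figure D4:**
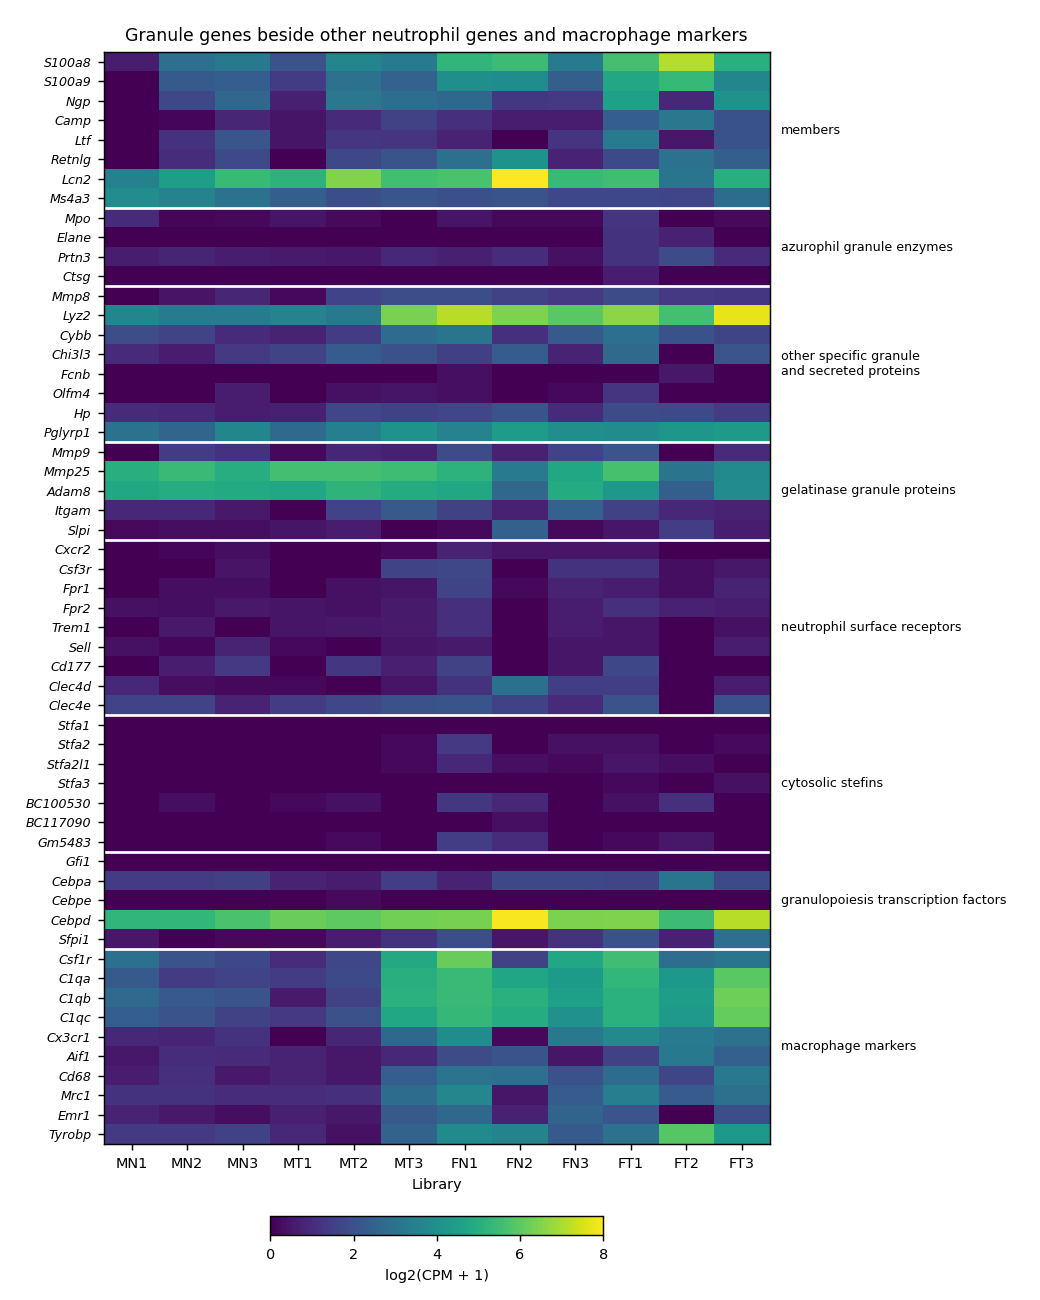
Heat map of log2(CPM + 1), on a colour scale from 0 to 8, for the members, 6 lists of neutrophil genes and the macrophage markers in rows and the 12 libraries in columns. Azurophil enzymes, receptors and stefins are dark in nearly all libraries. Of the macrophage markers, C1qa, C1qb, C1qc, Cd68 and Tyrobp are brighter in MT3 and every female library than in MN, MT1 and MT2. The other macrophage markers do not split the libraries in this way. Lcn2 in FN2, at 270.1 CPM, lies just above the top of the scale.

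Markers of other cells also differed between libraries. The 10 macrophage markers summed to 15.3 to 25.6 CPM in MN, 8.68 to 145 in MT, 108 to 246 in FN and 145 to 258 in FT. All 10 were tested. At an unadjusted p under 0.05, 9 were higher in FN versus MN, 1 in MT versus MN, 0 in FT versus FN and 5 in FT versus MT. C1qb (22.7 CPM), C1qc (20.6), C1qa (20.6) and Csf1r (16.7) led the list on average. In MT3 the macrophage markers summed to 145 CPM, within the range of the female libraries, and S100a8 at 8.64 CPM lay between MT1 and MT2. The part of macrophages in the differences of the members between groups was not tested.

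The 5 monocyte markers, led by F13a1 (7.85 CPM), Vcan (3.67), Ly6c2 (2.79) and Ccr2 (1.02), summed to 7.85 to 12.8 CPM in MN and 6.10 to 43.5 CPM in the other groups. Among markers of satellite glia, Apoe, a lipid carrier, ranged from 3279.5 to 3968 CPM in MN, 2729.6 to 3869.6 in MT, 6516 to 15599 in FN and 5119 to 15893 in FT, so that every female library was above every male library. Fabp7 averaged 292 CPM and Kcnj10, a potassium channel, 64.5 CPM. The 4 Schwann cell markers summed to 1153 to 3511 CPM and the 5 endothelial markers to 132 to 820 CPM, with overlap of all groups. The 7 B lineage markers reached 5.88 CPM in FT2, the mast cell, basophil and eosinophil markers 1.95 CPM and the dividing cell markers 9.13 CPM. The part of glia or monocytes in the members' differences was not tested.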

How the data were processed

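RNA of WGA-labelled TG neurons was sequenced from 12 pools, 3 in each of MN, MT, FN and FT, grouped by the sample labels. The authors aligned 50 bp reads to mm9 with TopHat2 and counted them on genes with HTSeq. The deposited values are whole read counts without normalization. The annotation and strand setting are not given in the sources used here. CPM used reads on genes, and RPKM exon lengths of GENCODE M1, which matched 21627 of 22609 symbols. Between 76.3% and 88.8% of reads had no gene and were left out.

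Two-sided quasi-likelihood tests of edgeR 4.0.16 (R 4.3.3) were run after TMM and filterByExpr (minimum count 10, minimum total 15), and 1 model held the 4 groups. P-values were adjusted by Benjamini-Hochberg over all genes tested, without X and Y between the sexes. Alternatives were DESeq2 1.42.0, edgeR with DESeq2 size factors, limma-voom with quality weights (limma 3.58.1), no filter, a replicate block, fewer groups or libraries, and leaving out each library. The fit of 2 groups without MN1 was chosen after seeing the data. Python 3.11.15 and matplotlib 3.10.9 were used for levels and plots.

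The 8 members were named in every comparison, with up to 4 genes of highest mean CPM in the 8 lists of neutrophil genes and the 11 marker lists, and 3 genes per member by Pearson r of log2 CPM (prior count 2). The members and lists were chosen with earlier results of these data known. From these libraries the study had called S100a9 and Retnlg in FN versus MN and Ms4a3 in MT versus MN. It had also called S100a8, S100a9, Ngp and Camp in FT versus FN. Counts of members at a threshold in these comparisons are therefore not independent of the choice of members. Some marker values are not reported here.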

Additional observations from a re-analysis of the deposited data

How the results depend on the processing

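Of 802 repeated log2 fold changes of members, 777 kept their direction and their side of an adjusted p of 0.05, 8 passed it newly and 17 turned sign. Means in CPM over TMM library sizes moved by less than 1 SD in all 32 cases. Genes with an adjusted p under 0.05, 0 in all 5 comparisons, numbered 20 (DESeq2), 800 (limma-voom), 54 (9 libraries) and 0 to 1 (leaving out each library) in FN versus MN. They numbered 2, 47 and 3 in MT versus MN under the same first 3 settings, 6 with only the 2 groups and 2 in those groups without MN1, and 245 (DESeq2), 1 (9 libraries) and 0 to 755 (leave-one-out, the highest without FT1) in FT versus MT. Members among them numbered 2 (limma-voom) and 1 (9 libraries) in FN versus MN, 2 (limma-voom) in MT versus MN, and 2 (DESeq2) and 0 to 1 (leave-one-out) in FT versus MT.

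Members with an unadjusted p under 0.05 numbered 5 in FN versus MN, and 3 with only the 2 groups, 2 over 10 libraries, 3 over 9, 2 in 2 groups without MN1 and 2 to 6 in leave-one-out fits. In MT versus MN 1 became 3 under limma-voom, 2 with only the 2 groups and over 10 or 9 libraries, and 1 to 2 in leave-one-out fits. In FT versus FN 3 became 1 under limma-voom and 1 to 4 in leave-one-out fits, in FT versus MT 3 became 5 over 10 libraries, and in the difference between the sexes 2 became 1 under limma-voom and 1 to 3 in leave-one-out fits. The cause of these changes was not tested, beyond that some settings hold fewer samples.

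Fold changes turned sign under limma-voom for Ltf in FN versus MN (0.22) and MT versus MN (0.45), Retnlg in FT versus FN (0.31) and S100a9 in the difference (-0.60). Over 9 libraries Ms4a3 did in FT versus FN (-0.16) and FT versus MT (-0.65), with FT1 as the only FT library. In 2 groups without MN1 Ngp turned sign in FN versus MN (-0.38). In leave-one-out fits, Ngp (-0.61 to 1.29) and Ltf (-1.90 to 0.13) in FN versus MN, Ltf in MT versus MN (-1.11 to 0.67), Retnlg (-1.40 to 0.54) and Ms4a3 (-0.23 to 0.69) in FT versus FN, Ms4a3 in FT versus MT (-0.47 to 0.45), and S100a8 (-0.30 to 1.39), S100a9 (-0.033 to 1.19) and Camp (-0.88 to 1.86) in the difference spanned 0.

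With a replicate block, 0 genes passed adjustment in each comparison and 2 rather than 3 members had an unadjusted p under 0.05 in FT versus FN. Deviations of same-numbered samples correlated from -0.35 to 0.57. Differently numbered samples were not compared, so these values cannot decide whether same-numbered samples were paired. DESeq2 size factors moved the median log2 fold change of all genes in FT versus MT to 0.13 from 0.07. DESeq2 gave no p for Lcn2, of which the direction alone is counted. Camp and Ltf failed the filter in some 2-group fits. Members with under 10 reads limit every fold of Camp, Ltf and Retnlg.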
